A study of Mus musculus with 6 samples.

Results

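The nuclear genes of the mitochondrial ribosome were examined in mouse GFP+ bone marrow cells, labelled as hematopoietic stem cells, that came from a transplant of cells given an inhibitor of the microRNA miR-31-5p or a control RNA. They were taken as every gene symbol that begins with Mrpl (large subunit) or Mrps (small subunit) followed by a digit. The 6 libraries each listed the same 78 such genes, 49 Mrpl and 29 Mrps, among 25033 symbols, and all 78 passed the filter on low counts that left 12978 genes for testing. The recipients of transferred hematopoietic stem cells (HSCs) were C57BL/6J mice aged 6 months, and RNA was made from the GFP+ cells sorted out of their bone marrow. Before transfer the HSCs got either control RNA (3 control libraries) or miR-31-5p inhibitor (3 inhibitor libraries). All recipients therefore had a transplant, and the cells read were the sorted GFP+ cells and not the cells as they were at treatment. The labels do not tie the libraries to single animals, and p-values here therefore reflect only how far these libraries spread, which may be technical.

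Mitochondria carry their own ribosome, the mitoribosome, which translates the few messenger RNAs of mitochondrial DNA into membrane subunits of the respiratory chain and ATP synthase. Its ribosomal RNAs are mitochondrial, while its proteins are encoded in the nucleus, made in the cytosol and imported. Some of these proteins have a bacterial counterpart and others are found only in mitochondria. Quiescent HSCs are known to depend little on respiration and to raise mitochondrial translation and respiration when they divide and differentiate.

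Sequences of 3 kinds are shown. They are the inhibited microRNA, the places in the members' transcripts whose letters match its seed by pairing, and promoter stretches with motifs known from nuclear genes of mitochondria. A link of these sequences to the treatment or to a regulator was not tested. The mature microRNA is given from RefSeq (GRCm38.p6, minus strand, chr4:88910614-88910635), with its seed, bases 2 to 8, in capitals.
miR-31-5p: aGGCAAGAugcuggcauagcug
The 7 bases that pair with this seed were found in the longest annotated 3′ untranslated region of 3 of the 78 genes (3.85%), against 12.6% of the tested genes with such a region. The members' transcripts are shorter than those of all genes tested (median 1063.5 against 2827 bases). The shares were not matched for the length of the region, so they do not show whether members hold fewer sites for their length. Each site is shown with its neighbouring bases, from the GENCODE M21 transcripts of the same build, with the match in capitals.
Mrpl10: acagagacTCTTGCCcagcctcc
Mrpl57: tgccttccTCTTGCCtcttaagt
Mrps26: gagcccagTCTTGCCcatttact
A match is a description of letters and not evidence of binding. The GENCODE untranslated regions used for Mrps26 and Mrpl57, of 3638 and 2471 bases, are longer than the longest transcript the deposited tables give these genes, of 962 and 2321 bases.

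Mrpl10 is a stalk protein that anchors the factor-recruiting stalk of the large subunit. Levels are given throughout as CPM (counts scaled to library size), always in the order of library numbers 1, 2 and 3. Mrpl10 read 60.5, 58.8 and 58.6 CPM in the controls and 53.3, 56.7 and 50.2 CPM in the inhibitor libraries. Mrps26, a mitochondria-specific small subunit protein, read 48.0, 38.7 and 38.0 CPM in the controls and 36.3, 33.0 and 38.1 CPM in the inhibitor libraries. Mrpl57, a mitochondria-specific large subunit protein, read 28.5, 25.4 and 26.4 CPM against 28.9, 20.95 and 21.15 CPM. The groups did not overlap for Mrpl10 and overlapped for both others. None of the 3 genes with a seed match passed the test: their log2 changes were -0.15, -0.22 and -0.17 in that order.

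The promoter window ran from 250 bases before to 50 bases after the start site, and a RefSeq table (GRCm38.p6) held it for 69 of the 78 genes. Some genes, such as Mrpl48, have several start sites and windows. A gene was counted when any of its windows held the motif. The motif of NRF1 (nuclear respiratory factor 1, a regulator of mitochondrial genes) was searched on both strands as GCGCA, any base, then GCGC. It was found for 13 of the 69 genes (18.8%). The share was 5.19% of all 27025 genes with a promoter window and 11.4% of such genes among those tested. The ETS motif CCGGAAG, which the mitochondrial gene regulator GABP binds, was in 26 (37.7%, against 9.93% of all and 19.97% of tested genes). The YY1 motif AAGATGGCG was in 8 (11.6%, against 1.64% and 3.51%), and the E-box CACGTG, a motif that Myc can bind, in 5 (7.25%, against 8.09% and 11.7%). Motifs can share letters where they adjoin, as ETS and YY1 can with AAG and YY1 and NRF1 with GCG. Such shared letters were not counted, so the counts of the motifs are not independent. Of the first 3 motifs, at least 1 was found for 41 of the 69 genes (59.4%), against 15.1% of all and 31.1% of tested genes. Of the members with a window, 16 of the 29 that fell (55.2%) held 1, and 25 of the 40 that did not pass the test (62.5%). Members of both kinds thus held these motifs. The 100 bases before the start site are printed, 5′ to 3′ on the gene's strand with the motif in capitals, for 3 members that fell and, last, for 1 that did not pass the test.
Mrps21: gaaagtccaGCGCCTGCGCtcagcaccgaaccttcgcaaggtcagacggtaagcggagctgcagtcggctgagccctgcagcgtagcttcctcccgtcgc
Mrpl12: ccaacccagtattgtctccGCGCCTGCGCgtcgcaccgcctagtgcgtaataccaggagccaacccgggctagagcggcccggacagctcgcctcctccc
Mrpl22: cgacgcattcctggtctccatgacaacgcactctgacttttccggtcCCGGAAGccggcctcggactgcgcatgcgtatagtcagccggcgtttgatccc
Mrpl45: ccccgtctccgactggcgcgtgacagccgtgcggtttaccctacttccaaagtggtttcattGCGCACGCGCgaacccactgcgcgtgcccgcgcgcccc
These stretches lie at chr3:95871515-95871614 (minus strand), chr11:120484537-120484636, chr11:58171564-58171663 and chr11:97315616-97315715 (plus strand). The annotated genes Mrpl22 and Mrpl45 begin upstream of these stretches, at chr11:58170043 and chr11:97314923. For both, the start site used is therefore an internal one. The capitals mark the NRF1 motif in Mrps21, Mrpl12 and Mrpl45 and the ETS motif in Mrpl22.

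The libraries held 16873188 to 21245861 counts. Among the controls, library 1 was the most distant. The chi-square of its counts over genes, per degree of freedom, was 17.5 against library 2 and 15.6 against library 3, and 7.86 between those. Counts of members that fell are given with and without library 1. So are the changes of some members in which it was the highest control. The labelled cell type was checked against markers. Kit, Cd34 and Flt3 of stem and progenitor cells read 180.0 to 418 CPM. The 9 stem and progenitor markers, of which 2 fell and 3 rose, summed to 985 to 1022 CPM in the controls and 1048 to 1092 CPM with the inhibitor. Markers of the most primitive HSCs were low. Procr read 0.95 to 1.18 CPM in the controls and 6.38 to 8.27 CPM with the inhibitor, and Slamf1 4.89 to 5.82 and 13.5 to 20.2 CPM. Hlf read 6.43 to 7.57 CPM in the controls and 3.37 to 4.21 CPM with the inhibitor, and Mecom 0.45 to 0.75 and 0.24 to 0.56 CPM. Ly6a, another marker of the list, read 23.1 to 26.8 CPM in the controls and 18.0 to 19.6 CPM with the inhibitor. All 6 megakaryocyte markers rose, and their sum was 1337 to 1562 CPM in the controls and 3028 to 3147 CPM with the inhibitor. Of 8 neutrophil lineage markers, led by Mpo, 3 fell and 5 rose, with sums of 5870 to 6561 and 5261 to 5358 CPM. Monocyte and dendritic markers (6 genes, 2 fell and 3 rose) summed to 1979 to 2065 and 2122 to 2148 CPM, and mast cell and basophil markers (4 genes, 1 fell and 2 rose) to 606 to 672 and 690 to 762 CPM. Erythroid, B cell and T cell markers summed to at most 5.55, 2.59 and 0.059 CPM in any library. The part of these cell types in the changes of the mitoribosomal genes was not tested.

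Of the 78 genes, 33 fell with the inhibitor (42.3%) and 0 rose, and 45 did not pass the test (edgeR's quasi-likelihood test, Benjamini-Hochberg adjusted p under 0.05 over all genes tested). Of all genes tested, 20.1% fell by the same rule and 40.5% changed in either direction. The median log2 change was -0.23, over a range from -0.64 (Mrps21) to 0.14 (Mrpl1), and 74 of the 78 values lay below 0, whereas the median of all genes tested was -0.01. No member rose by DESeq2 or limma-voom either, or at an unadjusted edgeR p under 0.05. The 3 inhibitor libraries all lay below the 3 controls for 41 members (52.6%), against 26.5% of all genes tested, and all lay above them for 0. The count of members that fell was 28 without control library 1, where 21.5% of all genes fell. It was 19 (24.4%) without inhibitor library 2, where 14.7% of all genes fell, and 17 (21.8%) after a correction for transcript length, by which 17.8% of all genes fell. In bulk RNA, fewer cells that use a gene and less of its RNA per cell cannot be told apart.

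**Figure D1:**
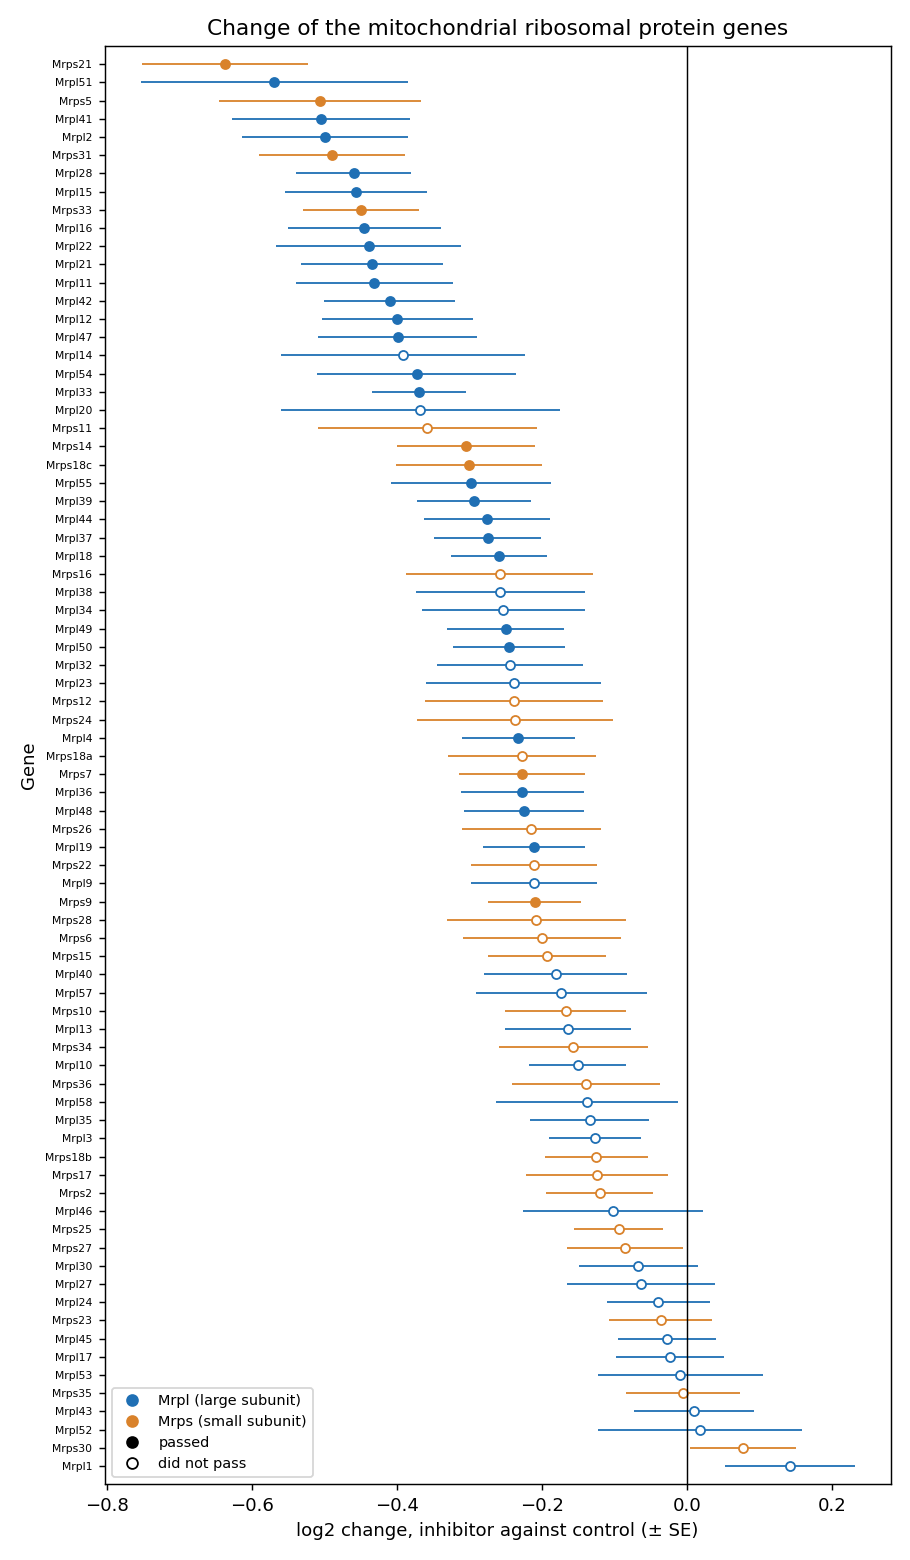
log2 change of each of the 78 genes, inhibitor against control libraries (3 each), with its standard error as a horizontal line, ordered from the lowest value. Blue marks Mrpl and orange Mrps genes, and filled points are the 33 that passed edgeR's test; filled points all lie left of 0, and the 4 genes right of 0 are open.

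Together the 78 genes took 0.317, 0.280 and 0.282% of all counts of the controls and 0.255, 0.248 and 0.250% of those of the inhibitor libraries. Their summed level was 3220, 2778 and 2818 CPM in the controls and 2552, 2476 and 2496 CPM in the inhibitor libraries. The groups did not overlap, and control library 1 stood above all the others. Single members were of moderate level: group means ran from 14.2 to 81.3 CPM in the controls and from 11.8 to 67.6 CPM in the inhibitor libraries. Per kilobase of transcript, ordered by the mean over both groups, the highest level was that of Mrpl33, with 149 CPM per kb in the controls and 115 in the inhibitor libraries, followed by Mrpl18 (84.5 and 70.5) and Mrpl12 (82.9 and 62.8). The lowest was that of Mrpl17 (6.27 and 6.17).

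Counts by part of the ribosome, here and below, are to be read against the 20.1% of all genes tested that fell. The stalk of the large subunit recruits the elongation factors, and 2 of its 4 proteins fell. Mrpl12, the stalk's repeated subunit, which also binds mitochondrial RNA polymerase, read 97.9, 70.7 and 75.3 CPM in the controls and 59.1, 61.1 and 64.7 CPM in the inhibitor libraries. It fell by 0.40 ± 0.10 (SE) on the log2 scale, or 1.32-fold (adjusted p = 0.0085). Mrpl11, at the base of the stalk, read 41.6, 30.1 and 33.7 CPM against 26.1, 24.9 and 27.1 CPM (log2 change -0.43 ± 0.11, adjusted p = 0.0053). Control library 1 was highest for both, yet the other controls also stood above every inhibitor library. Without control library 1 the changes of Mrpl12 and Mrpl11 were -0.25 and -0.29. Of the other stalk proteins, Mrpl10 missed the threshold (adjusted p = 0.084) and Mrpl53 had a log2 change of -0.01.

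The peptidyl transferase centre is made of RNA, with Mrpl2 and Mrpl3 reaching toward it. Mrpl2 (chr17:46646172-46650132) read 56.0, 43.0 and 38.7 CPM in the controls and 33.7, 31.8 and 31.8 CPM in the inhibitor libraries. It fell by 0.50 ± 0.11 on the log2 scale (adjusted p = 0.0036), with no overlap, and its change was -0.33 without control library 1. Mrpl3, among the 5 members of highest mean level, read 66.3, 70.7 and 69.8 CPM against 60.4, 65.7 and 63.4 CPM. Its groups did not overlap, and its log2 change of -0.13 ± 0.06 did not pass (adjusted p = 0.12).

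Other large subunit proteins with a bacterial counterpart gave several of the members with the smallest p-values. Mrpl28 (chr17:26123503-26126613) read 51.0, 44.2 and 44.1 CPM in the controls and 34.2, 33.1 and 34.0 CPM in the inhibitor libraries, a fall of 0.46 ± 0.08 on the log2 scale, or 1.38-fold (adjusted p = 3.0e-04). The inhibitor libraries were close to one another, and all lay below the lowest control. Mrpl33 (chr5:31613951-31622644), the shortest of these transcripts at 466 bases, read 70.8, 68.5 and 68.8 CPM against 56.3, 54.0 and 50.6 CPM (log2 change -0.37 ± 0.06, adjusted p = 3.3e-04). Here the 3 controls were nearly equal and control library 1 did not stand out.
Mrpl15 (chr1:4773198-4785750), a core protein with a long transcript of 4201 bases, read 51.0, 41.2 and 38.9 CPM against 33.3, 32.1 and 30.1 CPM, and fell by 0.46 ± 0.10. Mrpl16, which lies near the tRNA path, read 36.6, 29.9 and 29.9 CPM against 26.5, 22.2 and 21.98 CPM, and fell by 0.45 ± 0.10. Mrpl21 read 33.1, 28.5 and 27.8 CPM against 20.9, 24.1 and 21.3 CPM, and fell by 0.44 ± 0.10. In none of these 3 did the groups overlap, and the adjusted p-values were 0.0018, 0.0034 and 0.0025. Mrpl4, Mrpl19, Mrpl36 and Mrpl55 also fell, with log2 changes from -0.30 to -0.21.

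Of the mitochondria-specific large subunit proteins, 10 of 20 fell. Mrpl41 read 26.6, 18.8 and 21.3 CPM in the controls and 14.995, 16.7 and 15.3 CPM in the inhibitor libraries, and fell by 0.51 ± 0.12 (adjusted p = 0.0041). Mrpl42 read 46.8, 48.6 and 40.2 CPM against 36.4, 34.8 and 30.7 CPM, and fell by 0.41 ± 0.09 (adjusted p = 0.0021). Mrpl39 read 35.9, 35.2 and 37.0 CPM against 30.2, 29.9 and 28.0 CPM, and fell by 0.29 ± 0.08 (adjusted p = 0.0077). Control library 1 was the highest control for Mrpl41, the middle one for Mrpl42 and the middle one for Mrpl39, and no group overlapped.
Mrpl51 (chr6:125192200-125194392) read 47.6, 29.5 and 29.4 CPM against 25.9, 24.6 and 21.1 CPM. It fell by 0.57 ± 0.18 (adjusted p = 0.034), and it is the member whose control library 1 stood farthest above the other controls, by 0.69 on the log2 scale. Its change was -0.30 without that library. Mrpl54 read 27.9, 17.7 and 23.8 CPM against 17.1, 18.5 and 18.1 CPM. It passed the test (log2 change -0.37 ± 0.14, adjusted p = 0.043) although control library 2 lay inside the range of the inhibitor libraries, the 1 overlap among the 33. Mrpl37, Mrpl44, Mrpl48, Mrpl49 and Mrpl50 fell by 0.23 to 0.28.

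At the rim of the polypeptide exit tunnel, where new proteins leave toward the inner membrane, 3 of 7 proteins fell. Mrpl22 read 20.6, 17.9 and 15.1 CPM in the controls and 11.9, 13.0 and 14.7 CPM in the inhibitor libraries (log2 change -0.44 ± 0.13, adjusted p = 0.013). Mrpl47 read 18.8, 16.3 and 15.9 CPM against 12.2, 13.1 and 13.4 CPM (-0.40 ± 0.11, adjusted p = 0.0091), and Mrpl44 changed by -0.28. By contrast Mrpl45, which tethers the mitoribosome to the inner membrane, read 53.6, 51.9 and 50.2 CPM against 53.3, 49.4 and 49.8 CPM. Its groups overlapped, and its log2 change was -0.03 ± 0.07. The neighbouring Mrpl24 and Mrpl17 had changes of -0.04 and -0.02 with overlapping groups, and Mrpl23 one of -0.24 that did not pass.
In the central protuberance, the upper ridge of the large subunit, 2 of 6 fell. Mrpl18, the member with the highest mean CPM, read 87.5, 79.7 and 75.8 CPM in the controls and 67.4, 68.4 and 67.2 CPM in the inhibitor libraries (-0.26 ± 0.07, adjusted p = 0.0054). Mrpl48 changed by -0.23, while Mrpl38, Mrpl40, Mrpl46 and Mrpl52 did not pass.

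In the small subunit, which decodes the messenger RNA, 8 of the 29 Mrps genes fell. Mrps21 (chr3:95862634-95871514) had the lowest value of all 78 members. It read 47.8, 34.98 and 35.96 CPM in the controls and 26.8, 26.2 and 23.2 CPM in the inhibitor libraries, a fall of 0.64 ± 0.11 on the log2 scale, or 1.56-fold (adjusted p = 5.1e-04). Control library 1 was highest, and the lowest control still exceeded the highest inhibitor library. The change of Mrps21 was -0.48 without control library 1.
Mrps33 (chr6:39801804-39810936) read 48.4, 42.1 and 45.9 CPM against 34.2, 34.4 and 31.3 CPM, and fell by 0.45 ± 0.08 (adjusted p = 3.8e-04). Mrps31 (chr8:22410449-22429669) read 18.9, 17.5 and 18.5 CPM against 13.4, 12.6 and 13.2 CPM, and fell by 0.49 ± 0.10 (adjusted p = 0.0013). Both are mitochondria-specific, and both had controls close to one another and clear of the inhibitor libraries. Mrps5, which lines the messenger RNA entry, read 48.6, 32.1 and 36.7 CPM against 31.2, 25.3 and 26.0 CPM. It fell by 0.51 ± 0.14 (adjusted p = 0.012), and its change was -0.32 without control library 1.
Mrps9, in the head of the subunit, read 58.0, 55.8 and 55.8 CPM against 49.7, 49.0 and 47.8 CPM, and fell by 0.21 ± 0.06 (adjusted p = 0.017). Mrps14, another head protein, read 42.8, 36.7 and 36.0 CPM against 34.7, 28.1 and 30.6 CPM, and fell by 0.31 ± 0.10 (adjusted p = 0.019). These falls were small, and their groups did not overlap. Mrps7, also of the head, was nearest to the threshold among the members that passed (48.3, 41.5 and 40.4 CPM against 35.7, 35.3 and 40.2 CPM, -0.23 ± 0.09, adjusted p = 0.047), with Mrpl36 next (adjusted p = 0.043). Just outside it were Mrps22 (25.6, 24.9 and 25.3 CPM against 21.8, 21.3 and 22.3 CPM, -0.21 ± 0.09, adjusted p = 0.062) and Mrpl32 (-0.24 ± 0.10, adjusted p = 0.064). The groups did not overlap in any of these 4, so the line between members that fell and members that did not is not a gap in the values.

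The mammalian Mrps18 genes are 3 copies of a gene that bacteria hold once, and their proteins sit in different places. Mrps18c, the small subunit copy closest to the bacterial one, read 33.7, 28.9 and 27.2 CPM in the controls and 26.5, 23.2 and 23.1 CPM in the inhibitor libraries, and fell by 0.30 ± 0.10 (adjusted p = 0.026). Mrps18a, which despite its name lies in the large subunit, had a change of -0.23 ± 0.10 (adjusted p = 0.086), and Mrps18b, in the small subunit, one of -0.13 ± 0.07 (adjusted p = 0.17). The difference between the copies was not tested.
Mrps12, at the decoding centre, read 24.8, 18.8 and 18.2 CPM against 18.7, 17.5 and 16.1 CPM, with a change of -0.24 ± 0.12 that did not pass (adjusted p = 0.13). Mrps15, a bacterial-type protein of the small subunit, had one of -0.19 ± 0.08 (adjusted p = 0.068). Mrps30, which lies in the large subunit, read 48.6, 50.1 and 46.6 CPM against 53.2, 53.2 and 46.8 CPM (0.08 ± 0.07). Mrps36, now known as a component of the 2-oxoglutarate dehydrogenase complex and not of the ribosome, had a change of -0.14 ± 0.10, and Mrpl58, a peptidyl-tRNA hydrolase built into the large subunit, one of -0.14 ± 0.13. None of these 5 passed.

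Members that stayed near 0 were found in both subunits. Mrps35, a mitochondria-specific small subunit protein, read 32.1, 30.4 and 31.1 CPM in the controls and 30.6, 30.8 and 31.8 CPM in the inhibitor libraries. Mrps23 read 57.2, 51.1 and 54.5 CPM against 51.9, 56.4 and 50.6 CPM. Mrpl43 read 37.6, 35.3 and 35.7 CPM against 38.8, 32.9 and 37.6 CPM. The groups overlapped in all 3, with log2 changes between -0.04 and 0.01. Mrpl1, the member with the highest change, read 25.0, 28.8 and 27.9 CPM against 32.0, 29.5 and 28.5 CPM; 2 of the 3 inhibitor libraries lay above every control, and its change of 0.14 ± 0.09 did not pass (adjusted p = 0.22). Mrps25, among the 5 members of highest mean level, read 72.5, 68.3 and 67.2 CPM against 64.7, 65.3 and 64.8 CPM, without overlap, and its change of -0.09 did not pass (adjusted p = 0.23). Mrps2 had a change of -0.12 (adjusted p = 0.21).
The remaining members, none of which passed, were Mrpl9, Mrpl13, Mrpl14, Mrpl20, Mrpl27, Mrpl30, Mrpl34, Mrpl35, Mrps6, Mrps10, Mrps11, Mrps16, Mrps17, Mrps24, Mrps27, Mrps28 and Mrps34, with changes between -0.39 (Mrpl14) and -0.06 (Mrpl27). For Mrpl20 (61.3, 37.2 and 40.8 CPM against 36.0, 40.9 and 31.0 CPM) and Mrpl14 (20.6, 12.04 and 14.01 CPM against 12.7, 11.3 and 11.5 CPM), control library 1 carried most of the difference and the groups overlapped. Of the 78, 17 share exon bases with another protein-coding gene in GENCODE M21, among them Mrpl43 with Twnk and Mrpl36 with Ndufs6 on opposite strands and Mrps6 with Slc5a3 on the same strand. Of the members that fell, Mrpl18, Mrpl19, Mrpl21, Mrpl36, Mrpl47, Mrpl48, Mrpl49 and Mrps7 are among the 17. The sources used here do not give the strand of counting, and the counts of all 17 are uncertain.

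**Figure D2:**
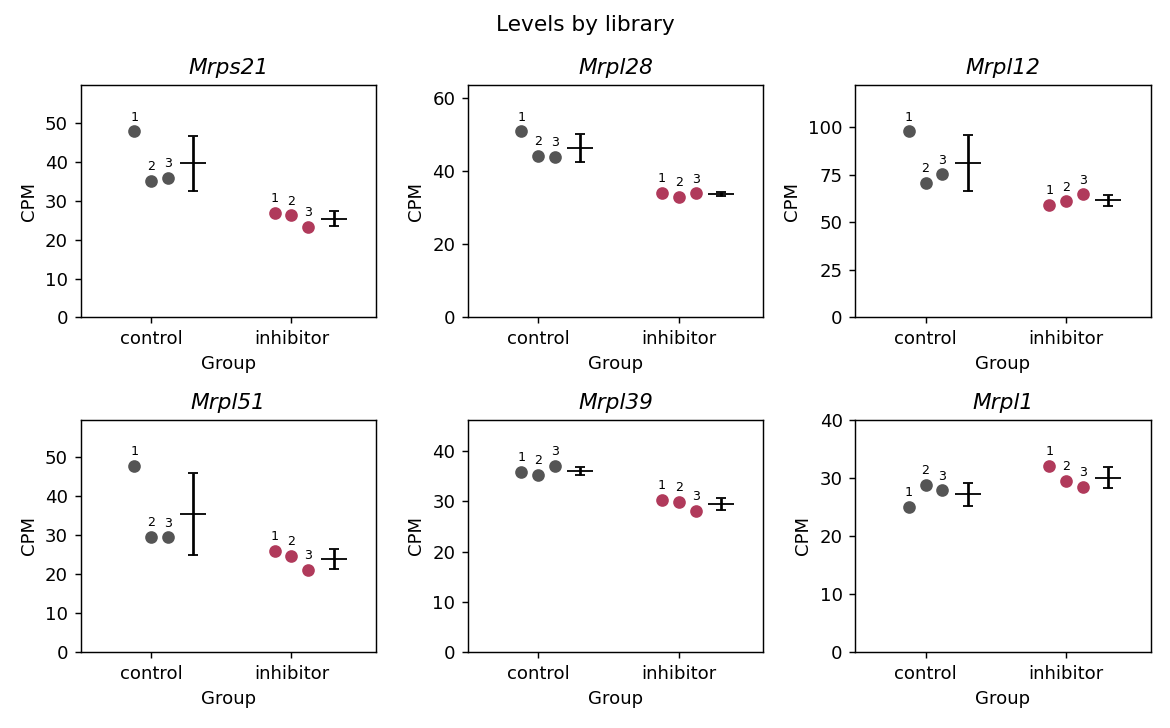
CPM of 6 members in each library (numbered points), with the mean and SD of the 3 libraries per group beside them. Mrps21, Mrpl28, Mrpl12, Mrpl51 and Mrpl39 fell, Mrpl51 with control library 1 at 47.6 CPM and the other controls at 29.5 and 29.4 CPM, and Mrpl1 had overlapping groups.

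Large and small subunit genes were compared next. Of the 49 Mrpl genes 25 fell, with a median log2 change of -0.25, and of the 29 Mrps genes 8, with a median of -0.21. The inhibitor libraries lay below the controls without overlap for 29 and 12 of them (59.2 and 41.4%), against 26.5% of all genes tested. With the proteins placed by their known position, 25 of 51 large subunit and 8 of 26 small subunit genes fell, with medians of -0.24 and -0.21. The medians thus differed by 0.04 on the log2 scale by symbol. The shares that fell were 51.0 and 27.6%, against 20.1% of all genes tested. After the correction for transcript length, 12 of the 49 Mrpl and 5 of the 29 Mrps genes fell, against 17.8% of all genes. Without control library 1, 22 Mrpl and 6 Mrps genes fell, against 21.5% of all genes. Per library, the mean log2 level of the large subunit genes exceeded that of the small subunit genes by 0.08, 0.07 and 0.07 in the controls and by 0.03, 0.07 and 0.04 in the inhibitor libraries. Inhibitor library 2 lay within the range of the controls, and no test of the difference between the subunits was made. In the large subunit 15 of 31 proteins with a bacterial counterpart and 10 of 20 without one fell, with medians of -0.24 for both, while the groups did not overlap for 21 of the 31 (67.7%) and 9 of the 20 (45%). In the small subunit 6 of 17 with a counterpart (35.3%) and 2 of 9 without one (22.2%, near the share of all genes) fell, with medians of -0.23 and -0.16. These differences were not tested.

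Control library 1 was then set against the other controls. It exceeded both of them for 67 of the 78 members (85.9%), against 43.5% of all genes tested. The median of the members' log2 difference, control library 1 minus the mean of the other controls, was 0.20, with a range from -0.18 to 0.69, and that of all genes was 0.02. With each member's level centred on its mean over the 6 libraries, the average over members reached 0.27 for control library 1, against 0.03 and 0.06 for controls 2 and 3 and -0.09, -0.14 and -0.12 with the inhibitor. Control libraries 2 and 3 thus lay between control library 1 and the inhibitor libraries. The inhibitor libraries' median distance from control libraries 2 and 3 alone was -0.15, against -0.01 over all genes. Without control library 1, 28 members fell and 0 rose, and 27 of the 28 were among the 33. With control library 2 as the only control, 12 fell (15.4%), a share near the 14.7% of all genes; that fit assumes that this 1 library varies like the inhibitor libraries.

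**Figure D3:**
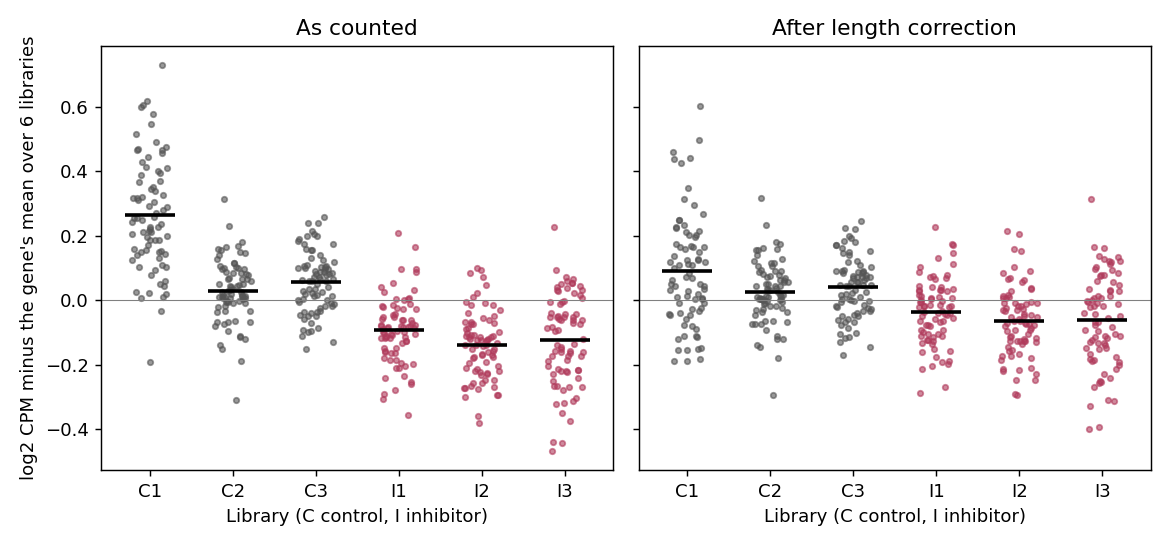
Level of each of the 78 genes in each library, as log2 CPM minus the gene's mean over the 6 libraries (points), with the mean over genes as a bar, before (left) and after (right) the correction for transcript length. The bar of control library 1 lies at 0.27 on the left and at 0.09 on the right; the 3 inhibitor bars lie below 0 in both panels.

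The transcripts of these genes are short, with a median of 1063.5 bases (412 to 6712) against 2827 for all genes tested, and both contrasts varied with length. Among other genes, the median log2 change rose from -0.22 in transcripts under 750 bases to 0.08 in those of 4000 bases and over, and the share that fell went from 33.9 to 14.7%. The median difference of control library 1 from the other controls went from 0.29 to -0.10 over the same classes. The members' median change was -0.25 under 750 bases (16 genes), -0.23 from 750 to under 1000 (18 genes), -0.22 from 1000 to under 1500 (20 genes) and -0.22 from 1500 to under 2500 (16 genes), where other genes had -0.22, -0.13, -0.09 and -0.05. Longer members had medians of -0.13 (3 genes from 2500 to under 4000 bases) and -0.21 (5 genes of 4000 bases and over). For control library 1, the members' medians of 0.34, 0.20, 0.20 and 0.08 in the first 4 classes stood beside 0.29, 0.19, 0.15 and 0.08 for other genes. In the 2 longest classes, of 3 and 5 members, they were -0.070 and 0.097, beside 0.0016 and -0.095. Across genes, the correlation of log2 length with the change was 0.15 (Pearson) over the 78 members and 0.16 over all genes tested, a description of genes that share the same 6 libraries.

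**Figure D4:**
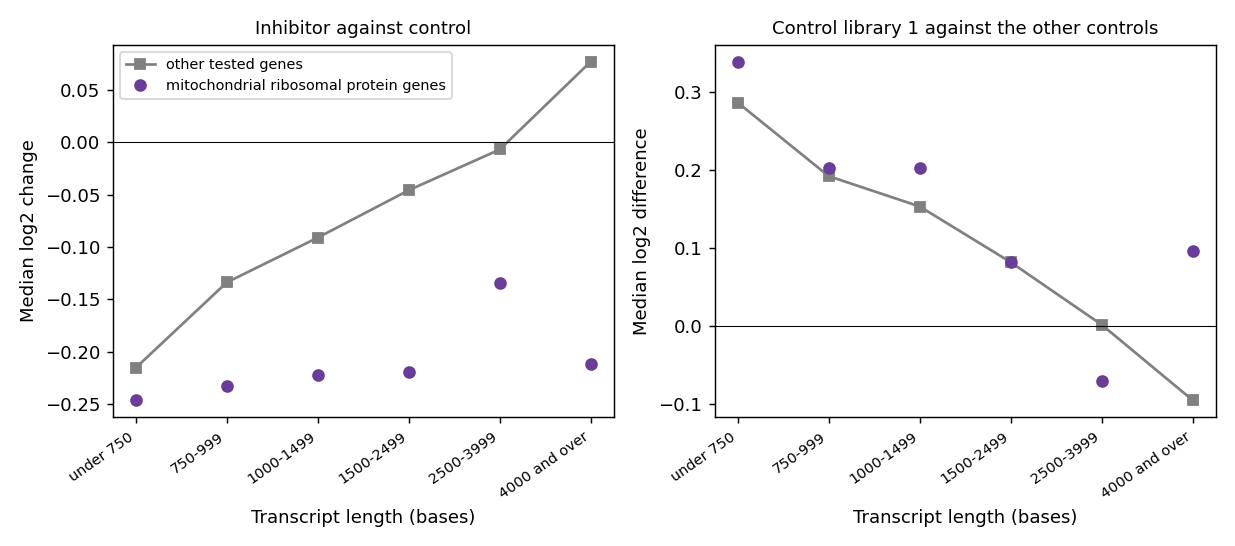
Median log2 change with the inhibitor (left) and median log2 difference of control library 1 from the other controls (right), by class of transcript length, for other tested genes (squares) and for the 78 members (circles; 16, 18, 20, 16, 3 and 5 genes). On the left the members lie from -0.25 to -0.13 in every class; on the right they go from 0.34 in the shortest class to -0.070 and 0.097 in the longest classes.

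When each library's dependence on transcript length was removed by a smooth curve over all genes, 17 members fell and 1 rose, Mrpl52 of the central protuberance. The members' median change became -0.10, and their median difference of control library 1 became 0.02, with 36 of the 78 above both other controls. All 17 were among the 33. Mrpl33 was among those lost (-0.12 after the correction), and Mrpl52, the shortest member at 412 bases, went from 0.02 to 0.31 (adjusted p = 0.015). It read 25.8, 16.2 and 18.7 CPM in the controls and 20.6, 21.4 and 19.4 CPM in the inhibitor libraries, which overlap. With a correction for length and GC content, 20 fell (19.8% of all genes) and Mrpl52 rose. With the length correction and without control library 1, 17 fell (18.0% of all genes) and Mrpl52 rose. After the length correction the members' share of falls, 21.8%, was thus near that of all genes. The correction also takes out any change that short genes share for another reason, and the part of transcript length in the falls was not tested.

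Leaving out each library in turn kept 17 of the 33 falls in all 6 fits (21.8% of the 78), against 11.8% of all genes tested. These were Mrpl2, Mrpl11, Mrpl12, Mrpl15, Mrpl16, Mrpl18, Mrpl21, Mrpl28, Mrpl33, Mrpl37, Mrpl39, Mrpl41, Mrpl42, Mrpl47, Mrps21, Mrps31 and Mrps33, that is 14 large and 3 small subunit genes. The other 16 did not pass in at least 1 of the fits. Without control library 1, Mrps7, Mrps18c, Mrpl36, Mrpl48, Mrpl54 and Mrpl55 did not pass, with log2 changes from -0.26 (Mrpl55) to -0.15 (Mrps7), and Mrpl3 passed (-0.16, adjusted p = 0.033). Without inhibitor library 2, 14 did not pass. They included Mrps5 (-0.45, adjusted p = 0.052), Mrps9 (-0.21, adjusted p = 0.052), Mrps14 (-0.24, adjusted p = 0.10) and Mrpl51 (-0.59, adjusted p = 0.067), and the last 3 of these 4 also did not pass without inhibitor library 3. Mrpl22 did not pass without inhibitor library 1 (-0.37, adjusted p = 0.068). Without control library 2, all 33 passed, and 9 more did, Mrpl14 and Mrpl20 among them, and 19.3% of all genes fell.

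The test was repeated under 14 other settings (other scaling, filters, tools, a replicate block, the corrections for length and GC content, and each library left out in turn). Of the 33 members, 12 fell in all of them (15.4% of the 78), against 11.2% of all genes tested. They were Mrpl2, Mrpl11, Mrpl12, Mrpl15, Mrpl16, Mrpl21, Mrpl28, Mrpl39, Mrpl41, Mrps21, Mrps31 and Mrps33, that is 9 large and 3 small subunit genes, with core, stalk and mitochondria-specific proteins among them.

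The other genes that build and run the mitoribosome were counted from lists, each to be read against the 20.1% of all genes tested that fell, or 17.8% after the length correction. Of 5 mitoribosome proteins named otherwise, 1 fell, Gadd45gip1 (55.2, 36.2 and 43.8 CPM in the controls and 32.7, 38.1 and 35.3 CPM in the inhibitor libraries, adjusted p = 0.045), and it did not pass without control library 1, control library 3, inhibitor library 1 or inhibitor library 2, or after the length correction. Dap3, a small subunit GTP-binding protein, had a change of -0.11. Of 15 mitochondrial translation factors, 6 fell (40.0%) and 1 rose, with a median of -0.26. Tufm, the elongation factor that brings tRNA to the ribosome, read 104, 91.8 and 96.2 CPM against 79.4, 70.9 and 69.4 CPM, and fell by 0.41 ± 0.07 (adjusted p = 2.5e-04).
Gfm1, the translocase, read 83.7, 84.5 and 83.4 CPM against 64.0, 65.3 and 66.2 CPM, and fell by 0.36 ± 0.06 (adjusted p = 1.5e-04). Taco1, an activator of translation of a cytochrome oxidase subunit, fell by 0.44 ± 0.10. Mrrf, the ribosome recycling factor, rose by 0.31 ± 0.10 (17.6, 20.3 and 18.5 CPM against 22.1, 23.6 and 24.2 CPM, adjusted p = 0.019). Control library 1 was not the highest control for Gfm1 or Taco1, and over the 15 factors its median difference from the other controls was -0.0039 on the log2 scale. After the length correction 5 of the 15 fell (33.3%).

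Of 25 proteins that assemble the mitoribosome or modify its RNA, 5 fell (20%, the share of all genes) and 0 rose, with a median of -0.12; 2 fell without inhibitor library 2 or inhibitor library 3. The smallest p-values were those of Rcc1l (-0.49 ± 0.10), an assembly factor, Rpusd4 (-0.47 ± 0.11), a pseudouridine synthase, and Mrm3 (-0.76 ± 0.21), a methyltransferase of the large ribosomal RNA. Of 17 mitochondrial aminoacyl-tRNA synthetases, which load the mitochondrial tRNAs, 4 fell (23.5%, near the share of all genes) and 0 rose, with a median of -0.16; 7 fell without control library 2 and 2 without inhibitor library 2. Mars2 read 21.4, 24.5 and 20.2 CPM against 13.2, 13.0 and 15.4 CPM and fell by 0.67 ± 0.11 (adjusted p = 2.1e-04), and Yars2 and Nars2 fell by 0.32 and 0.45. Lars2 read 277, 83.5 and 905 CPM in the controls and 57.2, 46.5 and 45.5 CPM in the inhibitor libraries and did not pass (-3.08 ± 1.03, adjusted p = 0.081). Its control values moved with the counts of the ribosomal RNA precursor Rn45s, 20039, 3667 and 61656 for the controls against 1784 to 3145 with the inhibitor, and the part of that RNA in them was not tested. Of 12 genes of mitochondrial DNA replication and transcription, 3 fell (25.0%, near the share of all genes) and 0 rose, with a median of -0.10: Twnk, the helicase, by 0.38 ± 0.09, Top1mt, a topoisomerase, by 0.51 ± 0.12, and Polg, the polymerase, by 0.19 ± 0.07.

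Among regulators of nuclear genes for mitochondria, 6 of 9 tested fell (66.7%) and 0 rose, with a median of -0.23. Myc, a transcription factor that drives ribosome and mitochondrial biogenesis, read 180, 180 and 185 CPM in the controls and 121, 114 and 110 CPM in the inhibitor libraries, and fell by 0.66 ± 0.06 (adjusted p = 2.1e-07). Pprc1 (123, 128 and 144 CPM against 86.9, 91.2 and 81.0 CPM) and Ppargc1b (27.3, 25.4 and 27.4 CPM against 17.5, 19.2 and 17.2 CPM), both coactivators of the PGC-1 family, fell by 0.61 ± 0.07 and 0.57 ± 0.09. Control library 1 was not above both other controls for any of these 3. Nrf1 and Yy1, whose motifs were counted in the promoters, had changes of -0.11 and 0.02 and did not pass, while Gabpa and Gabpb2 of the ETS-binding GABP fell by 0.16 and 0.23 and Gabpb1 had a change of 0.002 (adjusted p = 0.99). After the length correction 6 of the 9 fell.

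For comparison, of 78 tested nuclear subunits of the respiratory chain and ATP synthase, whose mitochondrial partners the mitoribosome makes, 44 fell (56.4%) and 0 rose, with a median of -0.27, and 26 (33.3%) fell after the length correction. Ndufa5 (35.6, 31.5 and 28.0 CPM against 18.8, 18.2 and 19.9 CPM), Ndufb6 and Ndufb10 of complex I fell by 0.74 ± 0.10, 0.82 ± 0.12 and 0.62 ± 0.09. Of 82 tested cytosolic ribosomal proteins, 22 fell (26.8%) and 3 rose, with a median of -0.15, and 8 fell after the length correction (9.76%, below the share of all genes). Without control library 2, inhibitor library 2 and inhibitor library 3 in turn, 35, 12 and 9 fell. The list was taken by symbol and so also holds Rpl7l1, an Rpl7-like gene, which fell by 0.37 ± 0.06. Rpl39 fell by 0.31 ± 0.06 and Rps26 rose by 0.28 ± 0.06. Cytosolic ribosomal protein genes have many near-identical processed copies, so their counts are uncertain. Their median difference of control library 1 from the other controls was 0.31, and that of the respiratory chain genes 0.31, both above the 0.20 of the mitoribosomal genes.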

How the data were processed

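RNA of sorted GFP+ bone marrow cells was taken up in Trizol, and the VAHTS mRNA-seq V3 kit was used for the libraries, per the labels' protocols. Each deposited table gives, per the file headers, a read count per gene symbol, an RPKM value and the longest transcript length (base pairs). Per the submitters' processing notes, the build was mm10 and bcl2fastq 2.20 was run. The aligner, the counter and whether strand was used were not given in the sources used here. RPKM values, made by the authors from counts, length and a library total, were used only to check the counts.

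Libraries were grouped by their labels, 3 control and 3 inhibitor, and 0 value columns belonged to other samples. Counts of 16873188 to 21245861 per library, for which 3 counts are 0.141 to 0.178 CPM, were filtered with filterByExpr (minimum count 10, minimum total 15) and scaled by TMM, with factors between 0.985 and 1.008. The test was the robust quasi-likelihood test of edgeR 4.0.16, run under R 4.3.3. P-values were adjusted by Benjamini-Hochberg over all 12978 genes, with a threshold of 0.05, and adjusted p-values come from this fit unless the sentence names another fit, which was adjusted over its own tested genes (13153 to 13199 with a library left out). CPM are TMM-normalised, and centred levels use log2 CPM with a prior count of 2. The length correction is a loess curve (span 0.4) of each library's log2 deviation on transcript length, entered as an offset. It was fitted over genes above a log2 CPM of 3. GC content came from GENCODE M21 transcripts, matched by RefSeq accession or by symbol, for 24699 of 25033 symbols. Alternatives used DESeq2 1.42.0 and limma 3.58.1. The edgeR fit was run on simulated counts in which 200 genes were changed and no control library stood apart. That run cannot show how the calls hold with a distant control library. The length correction was run on simulated counts with a planted length trend.

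Libraries of one group differed by more than counting noise: the chi-square per degree of freedom was 7.86 to 17.5 among controls, 3.11 to 4.37 among inhibitor libraries and 38.0 to 58.8 between groups. The members and lists were chosen with earlier results of these data known. Named members were, for each subunit, the 8 that fell with the smallest p-values, the 5 of highest mean CPM, the 2 on either side of the threshold, genes taken for their biology and those with a seed match; each list gave up to 3 genes with the smallest p-values. All other named genes were chosen after their values were seen.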

Additional observations from a re-analysis of the deposited data

How the results depend on the processing

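Of the 78 members, 33 fell in the main analysis (42.3%, against 20.1% of all genes tested). The count was 19 to 42 when each library was left out in turn. It was lowest without inhibitor library 2 (24.4%, against 14.7% of all genes). It was 17 after the length correction, 20 with length and GC correction, 12 with control library 2 as the only control, and 17 with the length correction and without control library 1; the last pair was chosen after seeing the data. The corrections gave 1 member that rose, Mrpl52, in each of the 3 fits. Of all genes tested, 17.8% fell with length correction, 19.8% with length and GC correction and 18.0% with length correction without control library 1. The members' median change was -0.10 with length correction, -0.11 with length and GC correction and -0.080 with length correction without control library 1, and -0.27 to -0.15 with a library left out. The difference of large and small subunit medians was -0.036 and became -0.069, -0.082 and -0.054 in these 3 fits, and -0.077 to -0.033 with a library left out. The median difference of control library 1 from the other controls became 0.020 with length correction. Mrpl54 went to 0.010 with control library 2 as the only control. In these changes the cause was not tested.

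With RLE scaling 32 members fell (and 2535 of 12978 genes tested), with no filter 38 (2711 of 17435) and with a stricter filter 32 (2529 of 12116). DESeq2 gave 28 (2390 of 12978 genes) and limma-voom 31 (2557 of 12978 genes). A threshold of 0.1 gave 44 members that fell, and the share of all genes at that threshold is not given here. In all of these, 0 members rose. All genes that changed numbered 4058 to 5692 with a library left out. With the replicate number as a block, 41 members fell. Of the 12978 genes tested in that fit, 2842 fell and 5673 changed in either direction. The replicate numbers share no stated origin: correlations of same-numbered libraries were 0.058, 0.008 and 0.037, and control library 2 correlated best with inhibitor library 3.

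For the lists, alternatives were added after seeing the data, and their counts are to be read against the genes that fell in the same fit. Of all genes tested, 17.8% fell with length correction, 19.8% with length and GC correction and 18.0% with length correction without control library 1. With a library left out, the fewest fell without inhibitor library 3 (1877 of 13160) and the most without control library 1 (2843 of 13196). Mitoribosome proteins under other symbols went from 1 fall to 0 with the replicate block, both corrections, control library 2 alone, and length correction without control library 1, and to 0 to 1 with a library left out. Assembly factors that fell went from 5 to 2 with control library 2 alone and to 3 with length correction without control library 1, and to 2 to 5 with a library left out. Synthetases that fell numbered 4, and 2 to 7 with a library left out. Replication and transcription genes went from 3 to 5 with length and GC correction, and 2 to 3 with a library left out. Cytosolic ribosomal proteins went from 22 to 8 with either correction, 9 with length correction without control library 1, and 9 to 35 with a library left out. Respiratory chain subunits went from 44 to 26, 27 and 24 in the 3 corrected fits, and were 31 to 47 with a library left out. The cause was not tested. A count of 3 is at most 0.178 CPM, below the lowest member by far (11.8 CPM).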
